A study of Solanum lycopersicum and Solanum pennellii and Solanum pimpinellifolium with 52 samples.

Results

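The genes described here are 10 gene models of the gibberellin pathway of tomato, picked by ID from a table of 28298 gene models. They are the synthesis enzymes CPS, GA20ox1, GA20ox2, GA20ox3, GA3ox1 and GA3ox2, the DELLA protein PROCERA, and the receptors GID1a, GID1b1 and GID1b2. Gibberellins are plant hormones that promote stem elongation, germination and flower and fruit growth. CPS (ent-copalyl diphosphate synthase) catalyses the first committed step of their synthesis, GA20ox enzymes (gibberellin 20-oxidases) carry out the late oxidations to the direct precursors, and GA3ox enzymes (gibberellin 3-oxidases) make the bioactive forms. The hormone binds a GID1 receptor, the complex captures a DELLA protein such as PROCERA, which represses growth, and the DELLA is degraded; in many plants GA20ox, GA3ox and GID1 transcripts rise when the signal is weak. The table does not pair IDs with names, so the names come from the list by which the genes were chosen; 6 of the 10 names were found in the RefSeq gene table of tomato, all 6 on the chromosome that the ID carries.

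RNA was sequenced from 52 libraries in 2 experiments, all from plants grown in a chamber at 22 °C. The seedling experiment held 28 libraries of seedlings harvested from plates under standard light, 7 each of cultivated tomato (Solanum lycopersicum, strain LA3475) and of the wild species S. pennellii (LA716), S. habrochaites (LA1777) and S. pimpinellifolium (LA1589). The factorial held 24 libraries, 1 for each combination of S. lycopersicum LA3475 or S. pennellii LA716, 6 tissues (root, stem, leaf, vegetative meristem, inflorescence and seedling) and 2 light treatments, simulated sun (red to far-red ratio 3.1) and simulated shade (0.48), both at 95 µE on average. Each species is represented by a lone accession. Expression was deposited as RPKM, reads scaled to gene model length and library total; whole reads could be recovered from it, with 1477052 to 5556059 reads per library. All 10 genes passed the filters on low values of both experiments, but depth differed widely among them, from 180 reads for GA3ox1 over all 52 libraries to 33344 for PROCERA.

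Differences were tested with limma on log2(RPKM + 1). A call needed an adjusted p (Benjamini-Hochberg over all genes tested) under 0.05 and a log2 difference of at least 1; for F tests the adjusted p sufficed. Among seedlings, S. pennellii stood furthest from S. lycopersicum: GA20ox2, GA3ox1 and GID1b1 were higher and GA20ox3 and GA3ox2 lower, 5 of 10 genes called, against 18.7% of all 19536 genes tested. The median log2 difference of the 10 genes in that comparison was 0.53, and that of all genes 0.10. Against S. lycopersicum, 2 genes were called in S. pimpinellifolium (GA20ox1 and GID1b1 lower; 4.65% of all genes) and 2 in S. habrochaites (GA20ox2 higher, GA3ox2 lower; 13.3%). Between wild species the counts were 3 for S. habrochaites against S. pimpinellifolium (10.9%), 6 for S. pennellii against S. pimpinellifolium (20.4%) and 3 for S. pennellii against S. habrochaites (20.8%). The F test over the 4 species passed for all 10 genes, in a table where 65.8% of genes passed it. Over the 6 tissues of the factorial, the F test passed for 8 of 10 genes, the exceptions being GA20ox2 (adjusted p = 0.139) and GID1a (adjusted p = 0.200); it passed for 77.3% of all 22512 genes tested.

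By the numbers of their run records, seedling libraries fall into blocks of 14, 12 and 2, whose meaning the labels do not state. Each species has libraries in block 1 and block 2. Both libraries of block 3 are S. habrochaites, so block 3 and species cannot be told apart. Block 2 holds only 2 libraries of S. habrochaites, on which all its block 2 results rest. Within block 1, the genes called in S. pennellii against S. lycopersicum were 6, the 5 above and GID1b2, against 18.6% of all 18316 genes tested there. Within block 2 they were 3 (GA20ox3, GA3ox2 and GID1b1), against 16.9% of 16945 genes, because GA20ox2 and GA3ox1 did not pass the filter on low values there; their means in block 2 were 0.0896 and 0.920 RPKM in S. lycopersicum and 3.75 and 2.60 in S. pennellii. For S. pimpinellifolium against S. lycopersicum the counts were 2 within block 1 (4.59% of all genes) and 1 (GA20ox1) within block 2 (4.3%). For S. habrochaites against S. lycopersicum they were 2 in each (12.5% and 15% of all genes), with PROCERA in place of the untested GA20ox2 in block 2. Between wild species they were 5 and 2 for S. habrochaites against S. pimpinellifolium (10.2% of all genes in each block), 6 and 4 for S. pennellii against S. pimpinellifolium (20.5% and 19.8%), and 1 (GA20ox3) and 2 (GID1b1 and GID1b2) for S. pennellii against S. habrochaites (18.6% and 22.6%).

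**Figure D1:**
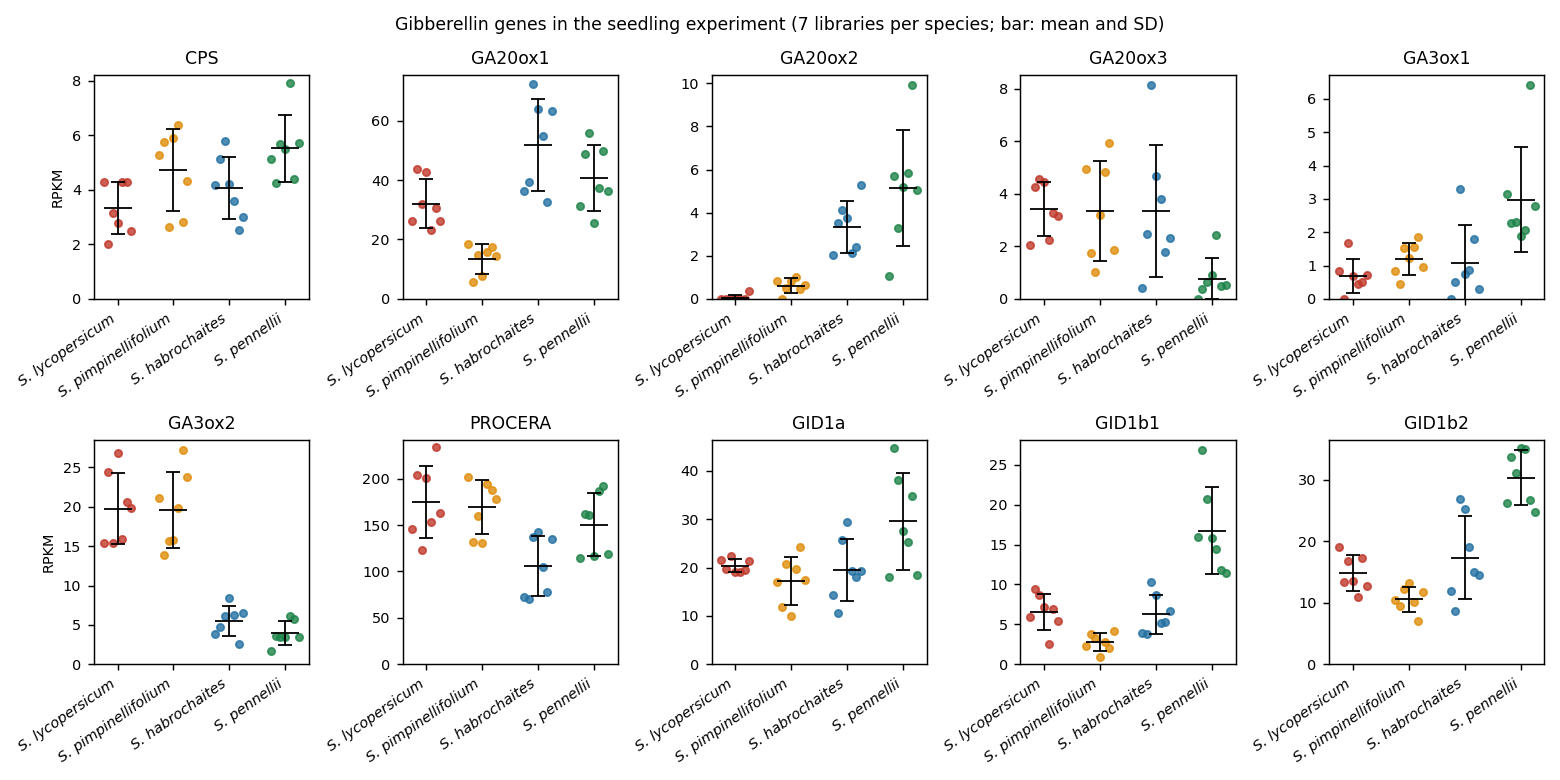
RPKM of each gene (y axis) in the 28 seedling libraries, by species (x axis). Points are libraries, the long bar is the mean of 7 libraries and the short bars are 1 SD, cut at 0; GA3ox2 is high in S. lycopersicum and S. pimpinellifolium, GA20ox2 is at or near 0 there, and GID1b1 and GID1b2 are highest in S. pennellii.

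CPS (Solyc06g084240.1.1, on chromosome 6 by its ID) makes ent-copalyl diphosphate from the common diterpenoid precursor. Its seedling means were close together, at 3.33 ± 0.958 RPKM for S. lycopersicum, 4.72 ± 1.51 for S. pimpinellifolium, 4.06 ± 1.14 for S. habrochaites and 5.52 ± 1.22 for S. pennellii (SD, n = 7 each). No pair of species was called, and the libraries of every pair overlapped. The F test passed narrowly (limma adjusted p = 0.0467), and leaving out any of 18 of the 28 libraries ended it (adjusted p from 0.0513 to 0.101). So did 6 of 8 other settings: a pseudocount of 0.1 (adjusted p = 0.0517), no filter on low values (0.0506), median-ratio scaling (0.116), quantile normalization (0.210), and block 1 (0.210) or block 2 (0.393) alone. Tissues differed more. Of all genes, 43.8% were called between leaf and root, 38.8% between root and meristem, 35.7% between inflorescence and leaf, 33.4% between inflorescence and root, 29.7% between root and seedling and 25.2% between root and stem. The other pairs of tissues had 28.9% (leaf and stem), 27.9% (stem and meristem), 24.1% (inflorescence and stem), 23.2% (seedling and stem), 22.7% (inflorescence and seedling), 20.1% (leaf and seedling), 19.4% (inflorescence and meristem), 18.1% (leaf and meristem) and 7.82% (seedling and meristem). In stem, CPS had 4.58 RPKM in sun and 3.72 in shade in S. lycopersicum, and 14.8 and 3.62 in S. pennellii. Seedling followed with a mean of 3.83 ± 0.872 (SD, n = 4), then meristem at 2.03 ± 1.55 and inflorescence at 1.90 ± 0.770. Leaf was at 0.624 ± 0.498 and root at 0.382 ± 0.366, where the 4 root libraries held 10 reads together. Stem was called higher than root (log2 difference 2.30, limma adjusted p = 1.79e-05), leaf, inflorescence and meristem, while stem against seedling and leaf against root were not called. In a whole-organ sample, fewer cells that express a gene and less RNA per cell cannot be told apart. Averaged over tissues, the S. pennellii value was higher by 0.67 on the log2 scale (adjusted p = 0.00617), under the fold threshold. It was called with a pseudocount of 0.1 (1.16, limma adjusted p = 0.00805) and with voom on the recovered reads (1.16, adjusted p = 0.00217).

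GA20ox1 (Solyc03g006880.2.1, chromosome 3) was the most abundant of the gibberellin 20-oxidase genes in every tissue and species. In seedlings of S. pimpinellifolium its lowest, median and highest values were 5.64, 14.7 and 18.6 RPKM. The same values were 23.1, 30.6 and 43.7 in S. lycopersicum, 25.5, 37.2 and 55.9 in S. pennellii and 32.7, 54.9 and 72.2 in S. habrochaites. Every S. pimpinellifolium library lay below every library of the other species, and the other species overlapped each other. GA20ox1 was 2.38-fold lower in S. pimpinellifolium than in S. lycopersicum (log2 difference -1.25 ± 0.23 SE, limma adjusted p = 3.08e-04). S. habrochaites exceeded S. pimpinellifolium 3.85-fold and S. pennellii exceeded it 3.02-fold, both called. These calls kept their direction and stayed called with each library left out.

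Across the factorial, GA20ox1 was lowest in root, at 2.45 RPKM in sun and 1.96 in shade in S. lycopersicum and 1.12 and 2.45 in S. pennellii. The other 20 libraries ranged from 7.35 to 57.7 RPKM, so root did not overlap with any other tissue. All 5 contrasts of root with another tissue were called, with log2 differences from -2.21 against inflorescence to -3.40 against meristem. Of the other pairs, inflorescence against meristem was called (log2 difference -1.19, limma adjusted p = 0.0263), and the neighbours in the order, meristem (32.7 ± 17.02, SD, n = 4), leaf (30.4 ± 15.1), seedling (24.7 ± 6.74) and stem (19.9 ± 15.1), were not told apart. The S. lycopersicum leaf had 8.39 RPKM in sun and 40.8 in shade, and the S. pennellii leaf 39.7 and 32.9. In stem, both S. lycopersicum libraries were low (7.35 and 7.55) and both S. pennellii libraries high (26.9 and 37.9).

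**Figure D2:**
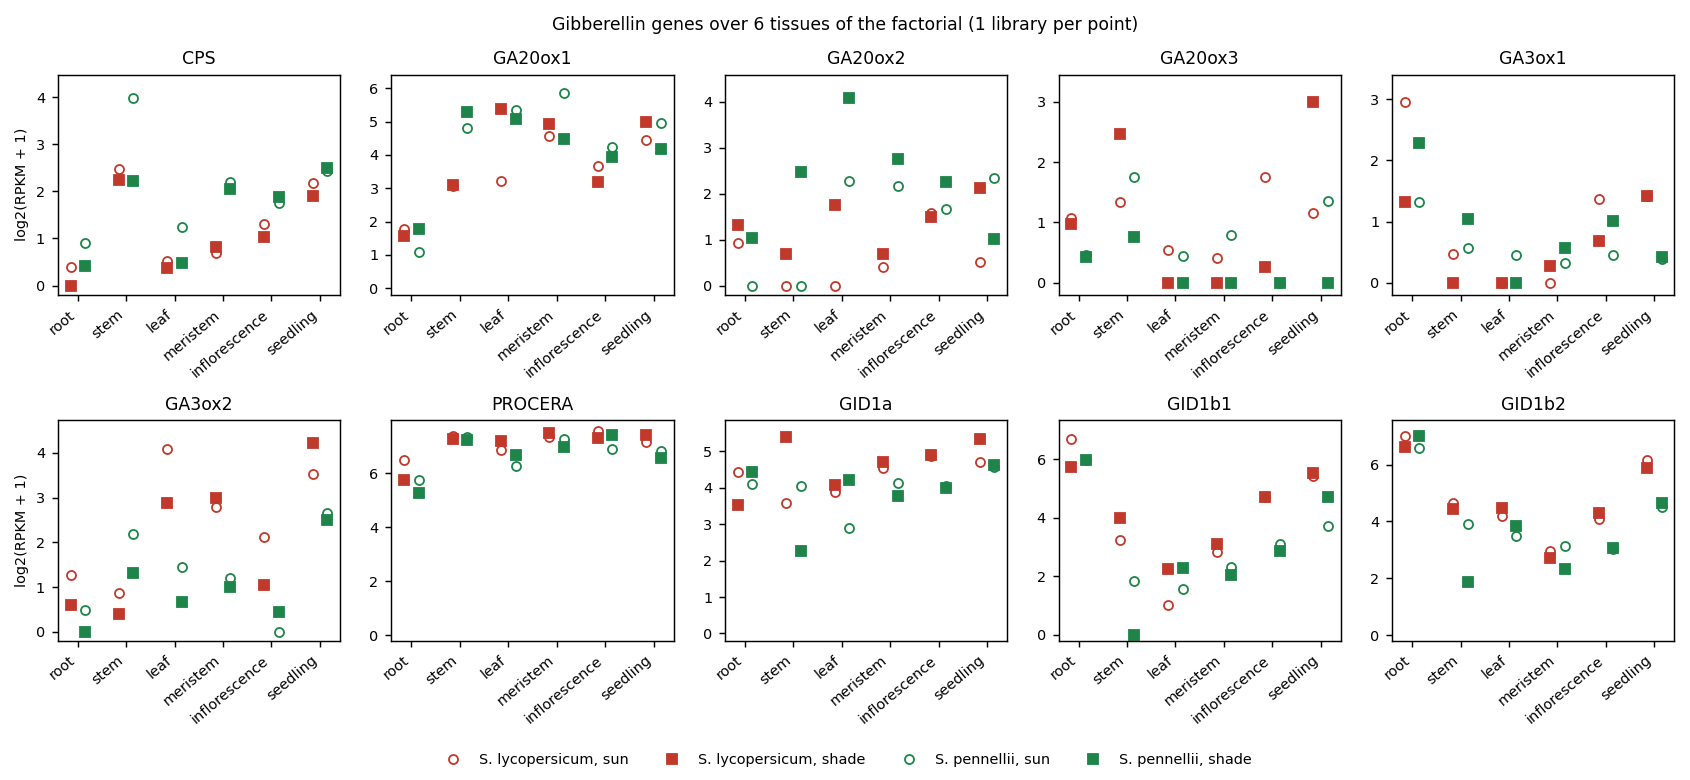
Level of each gene, log2(RPKM + 1) on the y axis, in the 24 factorial libraries by tissue (x axis). Each point is 1 library; open circles are sun and filled squares shade, red is S. lycopersicum and green S. pennellii. GA20ox1 and PROCERA are lowest in root, and GID1b1 and GID1b2 highest there.

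GA20ox2 (Solyc06g035530.2.1, chromosome 6) had the widest ratio between species means of the 10 genes. In S. lycopersicum seedlings 6 of 7 libraries were at 0 and the other held 1 read (0.358 RPKM). In S. pimpinellifolium the lowest, median and highest values were 0, 0.639 and 1.04 RPKM, from 12 reads in all. They were 1.05, 5.18 and 9.91 in S. pennellii (81 reads) and 2.04, 3.50 and 5.28 in S. habrochaites (64 reads). The ranges of S. habrochaites and S. pennellii lay above those of S. lycopersicum and S. pimpinellifolium without overlap. Relative to S. lycopersicum, the rate of reads was 64.3 times higher in S. habrochaites (95% counting interval 11.1 to 2581) and 93.5 times higher in S. pennellii (16.3 to 3739); the lower group rests on 1 read. The fitted log2 differences were 2.003 (limma adjusted p = 3.90e-07) and 2.41 (adjusted p = 7.30e-09), which the pseudocount of 1 makes smaller than the ratio of reads. S. pennellii against S. habrochaites was not called.

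In the factorial GA20ox2 was also detected in S. lycopersicum, with 47 reads over 12 libraries and values between 0 and 3.35 RPKM. The 12 S. pennellii libraries held 178 reads and ranged from 0 to 16.02 RPKM. The highest was the S. pennellii leaf in shade (16.02), followed by the meristem in shade (5.79), the stem in shade (4.59) and the seedling in sun (4.11). In leaf, S. pennellii had 3.85 RPKM in sun and 16.02 in shade, and S. lycopersicum 0 and 2.39, which was called (log2 difference 2.30 ± 0.68 SE, limma adjusted p = 0.0445). That call ended when any of 14 of the 24 libraries was left out (adjusted p from 0.0523 to 0.342), with a pseudocount of 0.1 (adjusted p = 0.0953) and without the filter on low values (adjusted p = 0.0539). The means of the tissues followed the order leaf 5.56 ± 7.15, meristem 2.56 ± 2.58, inflorescence 2.44 ± 0.882, seedling 2.23 ± 1.78, stem 1.30 ± 2.21 and root 0.867 ± 0.628 (SD, n = 4), and only leaf against root was called among the 15 pairs.

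GA20ox3 (Solyc11g072310.1.1, chromosome 11) was the gibberellin 20-oxidase gene with less in S. pennellii. Its seedling values ran from 0 to 2.45 RPKM in S. pennellii, with a median of 0.548 and 13 reads in all. The lowest, median and highest values were 2.06, 3.25 and 4.55 in S. lycopersicum, 1.01, 3.20 and 5.92 in S. pimpinellifolium and 0.400, 2.45 and 8.13 in S. habrochaites. The ranges overlapped, but 6 of 7 S. pennellii libraries lay below every S. lycopersicum library. The mean was 4.42-fold lower than in S. lycopersicum (log2 difference -1.38 ± 0.33 SE, limma adjusted p = 0.00121). Against S. habrochaites the log2 difference was -1.19. It was -0.98, just under the threshold, without S. habrochaites library 17, the highest of that species. Within block 2, where S. habrochaites had 2 libraries, it was -0.61 (limma adjusted p = 0.349). In the factorial the gene was highest in S. lycopersicum seedling in shade (6.996 RPKM) and stem in shade (4.52). Stem, at 2.28 ± 1.64 (SD, n = 4), was called higher than leaf (0.206 ± 0.242) and meristem (0.264 ± 0.347). The F test over tissues (adjusted p = 0.0361) was lost without any of 11 of the 24 libraries (adjusted p from 0.0519 to 0.0965).

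GA3ox2 (Solyc03g119910.2.1, chromosome 3) split the seedlings of the 4 species in pairs. Its lowest, median and highest values were 13.8, 19.8 and 27.2 RPKM in S. pimpinellifolium and 15.4, 19.9 and 26.8 in S. lycopersicum. They were 1.66, 3.51 and 6.10 in S. pennellii and 2.54, 6.08 and 8.42 in S. habrochaites. All 14 libraries of the green-fruited species S. habrochaites and S. pennellii lay below all 14 of the red-fruited species, and within each pair of species the ranges overlapped. GA3ox2 was 3.61-fold lower in S. habrochaites than in S. lycopersicum (log2 difference -1.71 ± 0.21 SE, limma adjusted p = 2.92e-07) and 5.04-fold lower in S. pennellii (-2.11 ± 0.21 SE, adjusted p = 3.52e-09). The calls against S. pimpinellifolium were of like size, at -1.70 and -2.09.

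In the factorial, GA3ox2 was again lower in S. pennellii in leaf and meristem. The S. lycopersicum leaf had 15.9 RPKM in sun and 6.36 in shade, and the S. pennellii leaf 1.73 and 0.579 (log2 difference -2.43 ± 0.46 SE, limma adjusted p = 0.00351). The S. lycopersicum meristem had 5.92 in sun and 6.98 in shade, and the S. pennellii meristem 1.30 and 1.01 (-1.79 ± 0.46 SE, adjusted p = 0.0340). Stem was reversed in the values, with 0.824 and 0.322 in S. lycopersicum against 3.52 and 1.48 in S. pennellii, which was not called (1.11, adjusted p = 0.137). GA3ox2 was the only member whose species difference varied between tissues by the F test of species by tissue (adjusted p = 0.0294), 1 of 10 genes where 8.46% of all genes passed. That test was lost with a pseudocount of 0.1 (adjusted p = 0.112), with voom on the recovered reads (adjusted p = 0.0716) and without any of 10 of the 24 libraries (adjusted p from 0.0523 to 0.120). So were the leaf call without the S. lycopersicum sun leaf (log2 difference -1.96, adjusted p = 0.0718), and the meristem call with a pseudocount of 0.1 (adjusted p = 0.177) or without any of the 4 meristem libraries (adjusted p from 0.0848 to 0.280). By tissue the means were 9.53 ± 5.98 RPKM in seedling, 6.14 ± 6.96 in leaf, 3.80 ± 3.09 in meristem, 1.54 ± 1.41 in stem, 1.19 ± 1.503 in inflorescence and 0.586 ± 0.602 in root (SD, n = 4).

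GA3ox1 (Solyc06g066820.2.1, chromosome 6), the other gibberellin 3-oxidase gene, went the opposite way in S. pennellii seedlings. The lowest, median and highest values were 1.87, 2.30 and 6.40 RPKM there, against 0, 0.697 and 1.68 in S. lycopersicum, 0.438, 1.22 and 1.85 in S. pimpinellifolium and 0, 0.749 and 3.30 in S. habrochaites. No S. pennellii library overlapped with S. lycopersicum or S. pimpinellifolium. The gene was 4.27-fold higher than in S. lycopersicum (log2 difference 1.21 ± 0.27 SE, limma adjusted p = 6.27e-04), from 46 against 13 reads. Against S. habrochaites the log2 difference of 1.03 fell under the threshold without any of 4 libraries (S. habrochaites 15, 16 and 21 and S. pennellii 27; 0.87 to 0.98). That call also ended with median-ratio scaling (0.92, adjusted p = 0.00672), with quantile normalization (0.71, adjusted p = 0.0515) and within block 1 (0.89, adjusted p = 0.107). In the factorial GA3ox1 was highest in root, with 6.77 RPKM in sun and 1.48 in shade in S. lycopersicum and 1.504 and 3.90 in S. pennellii. At the median library total 1 read of this gene is 0.385 RPKM, and no library held more than 30 reads. The root values of 1.48 and 1.504 thus rest on few reads. All 5 contrasts of root with another tissue were called, from a log2 difference of 1.06 against seedling to 1.86 against leaf. No root library lay below 1.48, but the S. lycopersicum seedling libraries, at 1.67 RPKM each, and inflorescence in sun, at 1.59, reached into the range of root.

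The makeup of each enzyme family followed these levels. GA3ox1 gave 83.9 ± 11.3% of the summed GA3ox RPKM in root (SD, n = 4) and 4.36 ± 8.71% in leaf. These percentages rest on few reads, as GA3ox2 was at 0 to 1.43 RPKM in the root libraries. In leaf, GA3ox1 was above 0 only in the S. pennellii sun library (0.3645 RPKM). In seedlings it gave 3.73 ± 3.08% in S. lycopersicum, 5.77 ± 2.21% in S. pimpinellifolium, 43.1 ± 12.95% in S. pennellii and 15.8 ± 15.99% in S. habrochaites (SD, n = 7). GA20ox1 gave between 59.4% (root) and 91.7% (meristem) of the summed GA20ox RPKM on average in each tissue, and 77.2% to 90.2% in seedlings of each species. GA20ox2 gave 0.173 ± 0.457% of that sum in S. lycopersicum seedlings and 10.98 ± 5.06% in those of S. pennellii. These shares restate the levels and were not tested.

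**Figure D3:**
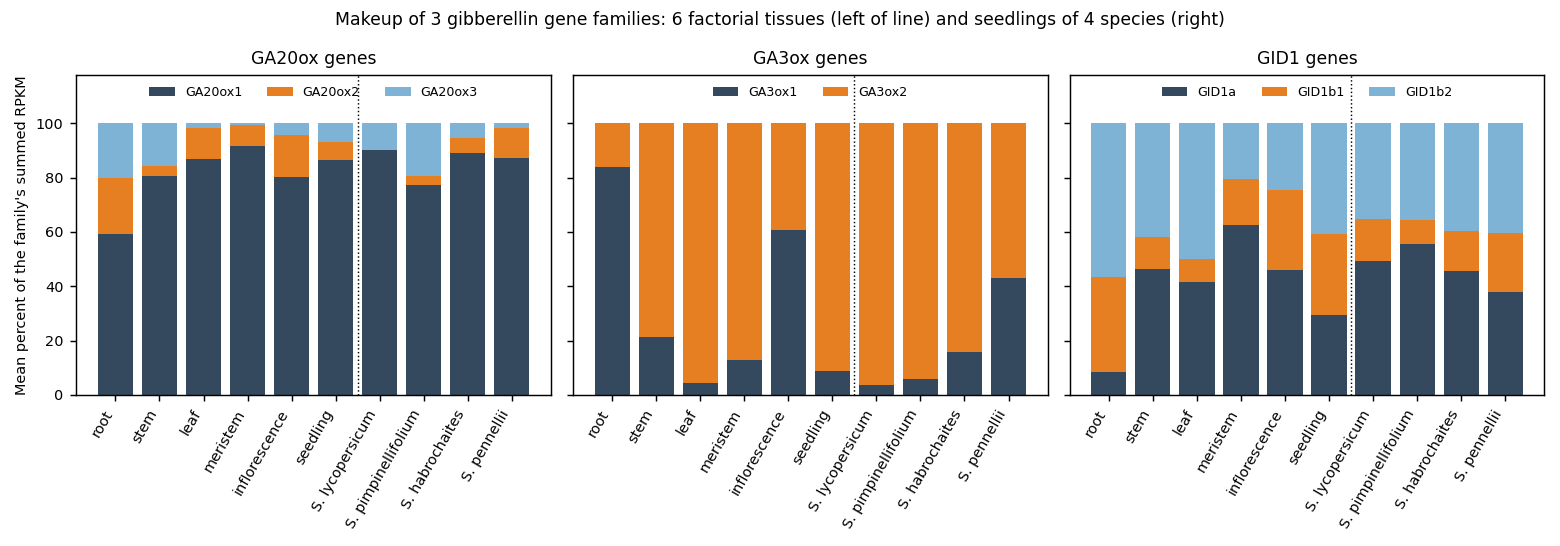
Mean percent of the summed RPKM of the GA20ox, GA3ox and GID1 genes (y axis) that each gene contributed, for 6 factorial tissues (4 libraries each, left of the dotted line) and seedlings of 4 species (7 libraries each, right of it). GA3ox1 gives most of the GA3ox sum in root, from few reads, and GA3ox2 in leaf and in seedlings of S. lycopersicum. GID1a gives 8.46% of the GID1 sum in root.

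PROCERA (Solyc11g011260.1.1, chromosome 11), the DELLA growth repressor, was the most abundant of the 10 genes per length, with a mean of 139 RPKM over all libraries. Its lowest, median and highest seedling values were 114, 161 and 193 RPKM in S. pennellii, 130, 178 and 202 in S. pimpinellifolium, 123, 163 and 234 in S. lycopersicum, and 69.9, 105 and 142 in S. habrochaites. With all run blocks together, the ranges of all species overlapped. The S. habrochaites value was 1.66-fold lower than that of S. lycopersicum (log2 difference -0.75 ± 0.18 SE, limma adjusted p = 0.00159), and no pair of species passed the fold threshold. The median of all genes was -0.14 in that comparison; median-ratio scaling shifted it by 0.12 and quantile normalization by 0.17. PROCERA also moved with the blocks of run records. In S. lycopersicum its values were 201 to 234 RPKM in block 1 and 123 to 163 in block 2. In S. pimpinellifolium they were 178 to 202 and 130 to 159, in S. habrochaites 135 to 142 and 69.9 to 72.5, and in S. pennellii 161 to 193 and 114 to 119, so the blocks did not overlap in any species. Within block 1, and within block 2, every S. habrochaites library lay below every library of the other species. Within block 2 alone, where S. habrochaites had 2 libraries, S. habrochaites against S. lycopersicum was called for PROCERA (log2 difference -1.02, limma adjusted p = 2.50e-04). With species in the model, block 1 exceeded block 2 by 0.60 on the log2 scale (limma adjusted p = 2.45e-08), a test chosen after the data were seen. By the adjusted p alone, 6 of the 10 genes differed between the blocks, all higher in block 1, as did 53.6% of all genes; 0 of 10 passed the fold threshold as well, against 7.92% of all genes.

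In the factorial PROCERA was lowest in root, at 88.7 RPKM in sun and 52.3 in shade in S. lycopersicum and 52.2 and 37.9 in S. pennellii. The other 20 libraries averaged 141 ± 30.1 (SD) and ranged from 76.5 to 185. The S. lycopersicum root in sun overlapped with the S. pennellii leaf in sun, the lowest library outside root. Root was called lower than inflorescence, stem, meristem and seedling, with log2 differences of -1.17 to -1.49. Against leaf the difference was -0.94 (limma adjusted p = 0.00114), just under the fold threshold, and was not called. Stem (157 ± 8.99, SD, n = 4), inflorescence (156 ± 29.0), meristem (154 ± 22.8) and seedling (128 ± 32.7) were not told apart. Averaged over tissues, S. pennellii was lower by 0.39 on the log2 scale (adjusted p = 0.0177), under the fold threshold.

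GID1a (Solyc01g098390.2.1, chromosome 1) was the receptor gene with the most even level. Its seedling means were 20.4 ± 1.36 RPKM in S. lycopersicum, 17.2 ± 4.999 in S. pimpinellifolium, 29.5 ± 10.1 in S. pennellii and 19.5 ± 6.37 in S. habrochaites (SD, n = 7 each). No pair of species was called and all ranges overlapped. The F test over species (adjusted p = 0.0191) was lost without S. pennellii library 23 (adjusted p = 0.0637) or 24 (adjusted p = 0.0551), the highest for this gene. Tissue means lay between 13.4 ± 4.90 in leaf and 27.6 ± 7.88 in seedling (SD, n = 4), and no pair of tissues was called. The lowest and highest of the 24 libraries were both stem in shade, at 3.76 RPKM in S. pennellii and 40.9 in S. lycopersicum.

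GID1b1 (Solyc09g074270.2.1, chromosome 9) and GID1b2 (Solyc06g008870.2.1, chromosome 6), receptor genes of the B type, were highest in root. GID1b1 had 103 RPKM in sun and 52.8 in shade in the S. lycopersicum root and 62.6 and 62.1 in the S. pennellii root. GID1b2 had 127 and 98.1 in the former and 94.1 and 127 in the latter. No library of another tissue reached these values, the next being S. lycopersicum seedlings at 45.9 (GID1b1) and 70.7 RPKM (GID1b2). Both genes were called higher in root than in each of the other 5 tissues. For GID1b1 the log2 differences ran from 1.25 against seedling (limma adjusted p = 0.0188) to 4.32 against leaf (adjusted p = 2.76e-07). For GID1b2 they ran from 1.499 against seedling (adjusted p = 0.00151) to 4.02 against meristem (adjusted p = 6.57e-08).

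Below root and seedling the order of the tissues differed between the B-type genes. GID1b1 followed the order seedling 31.5 ± 15.6, inflorescence 16.2 ± 10.8, stem 6.52 ± 6.66, meristem 5.24 ± 2.04 and leaf 2.67 ± 1.396 RPKM (SD, n = 4). Seedling against inflorescence was not called, and stem, meristem and leaf were not told apart. GID1b2 followed the order seedling 43.6 ± 24.3, leaf 15.6 ± 4.78, stem 15.4 ± 9.49, inflorescence 12.3 ± 5.98 and meristem 6.04 ± 1.63. Leaf exceeded meristem for GID1b2 (log2 difference 1.22, limma adjusted p = 0.0109), and inflorescence exceeded leaf for GID1b1 (2.07, adjusted p = 4.99e-04). The summed RPKM of the GID1 genes was 199 ± 40.2 in root, where GID1a gave 8.46 ± 1.42% and GID1b2 56.6 ± 4.95%, and 30.4 ± 8.24 in meristem, where GID1a gave 62.7 ± 3.15%.

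In seedlings grown on plates, both B-type genes were highest in S. pennellii. The lowest, median and highest values of GID1b1 were 11.5, 15.8 and 26.8 RPKM in S. pennellii, 2.49, 6.90 and 9.39 in S. lycopersicum, 0.883, 2.81 and 4.15 in S. pimpinellifolium and 3.79, 5.24 and 10.3 in S. habrochaites. Every S. pennellii library lay above every library of the other species. In S. pennellii, GID1b1 was 2.55-fold above its S. lycopersicum level (log2 difference 1.25 ± 0.25 SE, limma adjusted p = 1.88e-04). In S. pimpinellifolium it was 2.39-fold lower than in S. lycopersicum (-1.01 ± 0.25 SE, adjusted p = 0.00585), and without any of 7 of the 28 libraries that difference was -0.85 to -0.99, under the threshold, as it was with quantile normalization (-0.995) and within block 2 (-0.87, adjusted p = 0.166). GID1b2 ran from 24.7 to 35.04 RPKM in S. pennellii, 10.9 to 19.03 in S. lycopersicum, 7.01 to 13.2 in S. pimpinellifolium and 8.62 to 26.8 in S. habrochaites. Its S. pennellii libraries lay above all of S. lycopersicum and S. pimpinellifolium and overlapped with S. habrochaites. The difference from S. pimpinellifolium was called (2.87-fold, log2 difference 1.44, adjusted p = 2.34e-07), and that from S. lycopersicum reached 0.99 (2.04-fold, adjusted p = 7.06e-05), just under the threshold.

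RNA of genes that are high in root also differed between the seedling libraries. A set of 199 genes, chosen after the data were seen and without the 10 genes described here, had at least 10 RPKM in all 4 root libraries and at least 10 times the highest leaf, stem, inflorescence or meristem library. Their summed RPKM was 29829 to 32106 in root and 87.4 to 290 in the 16 libraries of leaf, stem, inflorescence and meristem. In seedlings from plates it was 168 to 253 in S. lycopersicum, 220 to 404 in S. pimpinellifolium, 592 to 1431 in S. pennellii and 187 to 362 in S. habrochaites. In the seedling libraries of the factorial it was 1829 to 2064 in S. lycopersicum and 1124 to 1288 in S. pennellii. On plates the median sum was 267 in S. pimpinellifolium and 225 in S. lycopersicum, while GID1b1 was lower in S. pimpinellifolium. In S. pennellii the median was 822 on plates and 1206 in the factorial, between which neither GID1b gene was called. The share of root in each seedling library was not measured, and its part in the GID1b values was not tested.

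**Figure D4:**
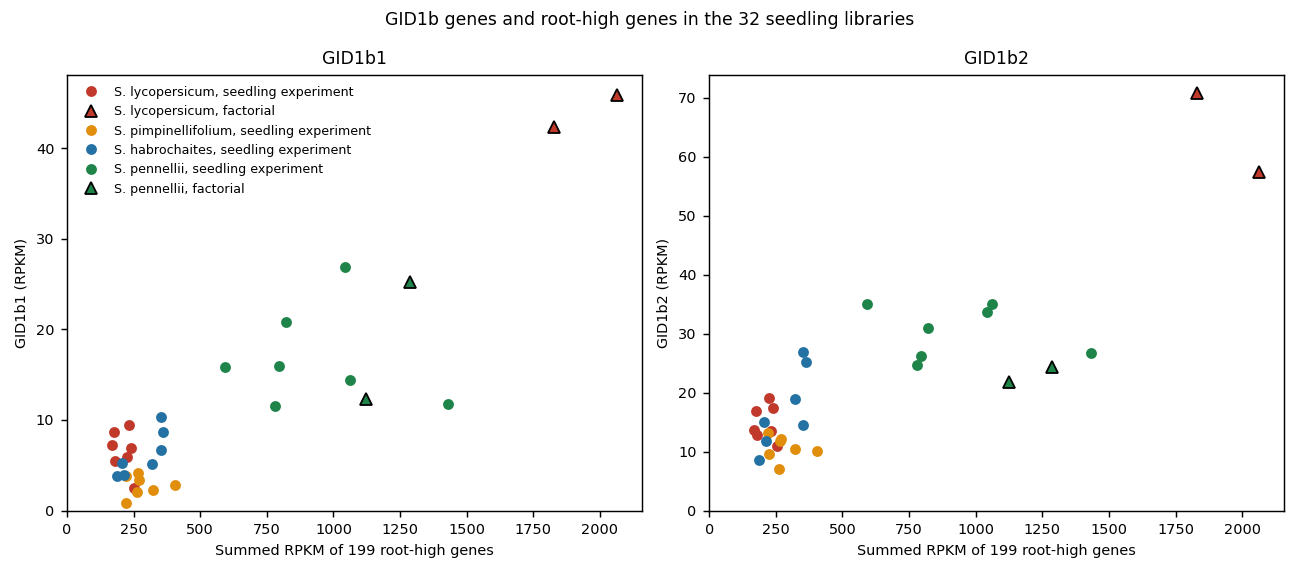
RPKM of GID1b1 and GID1b2 (y axes) against the summed RPKM of 199 root-high genes (x axis) in 32 seedling libraries; circles are the seedling experiment, triangles the factorial, colours the species. Seedlings of S. pennellii from plates lie at 592 to 1431 on the x axis and above the other species from plates for GID1b1, overlapping with S. habrochaites for GID1b2, and the S. lycopersicum libraries of the factorial lie highest on both axes.

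In the factorial the species difference of GID1b1 averaged over tissues had the other sign, though not in every tissue. In leaf, GID1b1 had 1.03 RPKM in sun and 3.76 in shade in S. lycopersicum, and 1.98 and 3.89 in S. pennellii. Averaged over tissues, GID1b1 was lower in S. pennellii (log2 difference -1.07 ± 0.23 SE, limma adjusted p = 0.00188), and so was GA3ox2 (-1.08 ± 0.19 SE, adjusted p = 4.37e-04), 2 of 10 genes called against 10.6% of all genes. Both stayed under an adjusted p of 0.05 with each library left out, but fell just below the fold threshold without any of 5 libraries for GID1b1 (-0.90 to -0.99) and 3 for GA3ox2 (-0.967 to -0.999). Both calls also ended with median-ratio scaling (-0.96 for GID1b1 and -0.999 for GA3ox2) and with quantile normalization (-0.98 and -0.91). Under these scalings GA20ox2, at 0.88 in the values as deposited, was the gene called instead, higher in S. pennellii by 1.04 (adjusted p = 0.00896) and 1.13 (adjusted p = 0.00556). Within tissues, 2 genes were called in leaf (9.52% of all genes), 3 in stem (12.1%), 1 in meristem (5.68%) and 0 in inflorescence (8.65%), root (11.1%) and seedling (10.7%). Of the uncalled, 3 genes in inflorescence, 0 in root and 5 in seedling had an unadjusted p under 0.05, as had 24%, 24.6% and 26.5% of all genes. With voom on the recovered reads, 0, 0 and 1 were called, against 8.80%, 10.2% and 10.2% of all genes. In stem, GID1b1 had 8.52 RPKM in sun and 14.96 in shade in S. lycopersicum and 2.60 and 0 in S. pennellii (log2 difference -2.70, adjusted p = 0.00510). GID1b2 had 24.2 and 20.8 against 13.98 and 2.67 (-1.66, adjusted p = 0.0259), and GA20ox1 was higher in S. pennellii (1.96, adjusted p = 0.0276). The S. pennellii stem in shade was the lowest of the 24 libraries for all GID1 genes. Without it the stem differences were -1.66 for GID1b1 (adjusted p = 0.109), -0.63 for GID1b2 (adjusted p = 0.412) and 1.52 for GA20ox1 (adjusted p = 0.239), and none was called. Without the S. lycopersicum stem in shade none was called either, at -2.39 (adjusted p = 0.0748), -1.72 (adjusted p = 0.124) and 1.75 (adjusted p = 0.204).

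The seedling libraries of the factorial allowed S. pennellii and S. lycopersicum to be compared with those from plates. The species difference of 4 of the 10 genes changed between the experiments, where 9.38% of all 20917 genes tested were called; this test was chosen after the data were seen. GID1b2 had 70.7 RPKM in sun and 57.4 in shade in the S. lycopersicum seedlings of the factorial and 21.8 and 24.4 in those of S. pennellii, and GID1b1 had 42.4 and 45.9 against 12.3 and 25.3. The S. lycopersicum values lay above the S. pennellii values here and below them on plates. The species difference changed by -2.42 on the log2 scale for GID1b2 (limma adjusted p = 9.37e-05) and by -2.51 for GID1b1 (adjusted p = 0.00238). Most of this lay in S. lycopersicum, where GID1b1 was 6.71-fold and GID1b2 4.32-fold higher in the factorial seedlings, both called (10.3% of all genes were). In S. pennellii the differences between the experiments were 0.13 for GID1b1 and -0.37 for GID1b2, neither called (9.79% of all genes were).

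For the enzymes, GA3ox1 had 1.67 RPKM in both factorial seedlings of S. lycopersicum and 0.315 and 0.341 in those of S. pennellii. Its species difference changed by -2.22 (limma adjusted p = 0.00900), and in S. pennellii the gene was 9.08-fold lower than on plates (2 reads over both libraries against 46 over 7; log2 difference -1.51, adjusted p = 0.00837). GA20ox2 had 0.421 RPKM in sun and 3.35 in shade in S. lycopersicum and 4.11 and 1.03 in S. pennellii. Its change of -2.04 (adjusted p = 0.0256) was lost without the shade seedling of S. pennellii (-1.37, adjusted p = 0.260) or of S. lycopersicum (-1.23, adjusted p = 0.320). GA3ox2 was lower in S. pennellii in both experiments, at 10.6 and 17.6 RPKM in S. lycopersicum against 5.30 and 4.67 in S. pennellii here, though not called in the factorial (-1.29, adjusted p = 0.0854). The experiments differ in light, in RNA extraction (Trizol for the factorial, a Qiagen kit for the plates) and in the summed RPKM of root-high genes, which cannot be told apart.

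Shade against sun was called for 0 of the 10 genes in S. lycopersicum, where 0% of all genes were called, in S. pennellii (0.00888%), over both species (0%) and for the difference between the species (0%). Voom on the recovered reads called 0 members in each as well, against 0%, 0.0178%, 0.00888% and 0% of all genes. At an unadjusted p under 0.05 there were 0, 1, 1 and 0 members, and 1239, 1398, 1050 and 1591 of all genes. The member was GA20ox2, which was higher in shade in 5 of 6 tissues of each species, with means of 1.72 ± 1.06 RPKM in shade and 0.609 ± 0.757 in sun in S. lycopersicum and 5.37 ± 5.55 and 2.27 ± 1.88 in S. pennellii (SD, n = 6 tissues). The exceptions were the S. lycopersicum inflorescence and the S. pennellii seedling. Its mean log2 difference over both species was 0.82 ± 0.28 SE (95% interval 0.23 to 1.41, limma adjusted p = 0.983), which did not pass the correction. CPS had a difference of -0.35 (95% interval -0.71 to 0.01) and GA3ox2 of -0.38 (-0.78 to 0.02). For PROCERA the interval was -0.31 to 0.20 and for GID1b2 -0.60 to 0.19.

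Tissues spread around these means more than the means differed from 0. Shade minus sun for GA20ox1 was 2.15 on the log2 scale in the S. lycopersicum leaf and at -1.401 in the S. pennellii meristem. In the S. pennellii stem it was -1.78 for GID1a, -1.85 for GID1b1 and -2.03 for GID1b2. With 1 library per combination, a light response of a lone tissue has no replicate and was not tested.

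**Figure D5:**
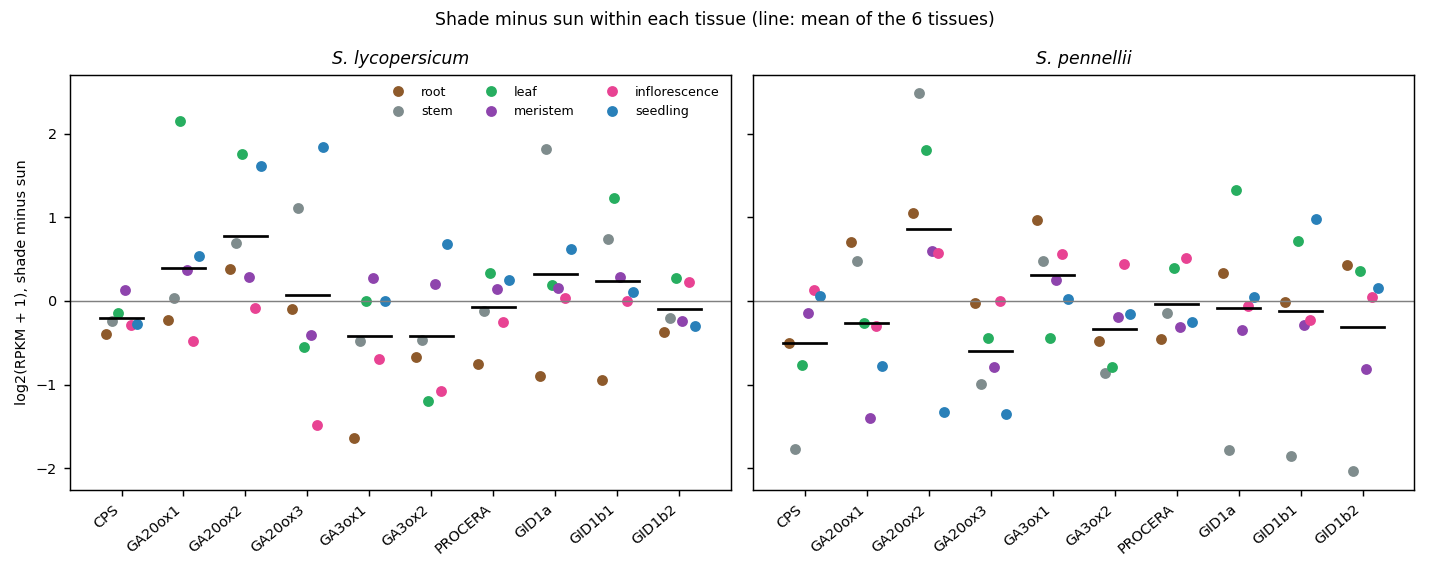
Shade minus sun of log2(RPKM + 1) (y axis) for each gene (x axis) in 6 tissues of S. lycopersicum (left) and S. pennellii (right); each point is the difference of 2 libraries, and the black line is the mean of the 6 tissues. GA20ox2 has the highest mean in both species, and the points of most genes lie on both sides of 0.

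Over the 24 factorial libraries, the B-type receptor genes followed each other (Pearson r = 0.844 of log2(RPKM + 1); 0.712 over the 20 libraries without root, and 0.865 over the 28 seedling libraries). The gene of the table most like GID1b2 over the factorial was Solyc07g044980.2.1 (r = 0.913; 0.881 without root, 0.687 over the seedling libraries). The gene most like GA20ox1 was Solyc03g026200.2.1 (r = 0.913), with 0.725 without root and -0.146 over the seedling libraries. These are descriptions over libraries that share tissues and species. The sources used here give neither gene a name.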

How the data were processed

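The authors deposited 1 table of RPKM for 28298 gene models in 52 libraries, made with CASAVA 1.4 and BWA 0.5.7, per the submitters' processing notes. For the reference, the counting rule and multiply matching reads, the authors' choice is not given in the sources used here. Counting may lose wild-species reads that differ from the reference, and may split reads among near-identical copies, so the members of each family are uncertain to that extent. All 52 value columns were used. RPKM values were whole multiples of 1 read for 100% of values (tolerance 0.02 reads); the recovered totals had a median of 2309105 reads, and at the median gene length of 918 bases 1 RPKM stands for 2.12 reads. Intervals of read ratios cover counting error only.

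Tests used limma 3.58.1 in R 4.3.3 (trended prior, robust) on log2(RPKM + 1), a scale that understates changes of low genes, with Benjamini-Hochberg adjustment over all genes tested. The seedling fit took 19536 genes with at least 1 RPKM in at least 7 of 28 libraries (24 residual degrees of freedom). The factorial fit took 22512 genes with at least 1 RPKM in at least 2 of 24 libraries, with a mean per species and tissue and a light term per species (10 residual degrees of freedom), so sun and shade libraries serve as replicates for species and tissues. The main seedling fit had no term for run block. Labels do not say whether libraries of a group came from separate plants, so p-values measure only library-to-library spread, which may be technical. Over 84 replicate pairs the chi-square per gene was 1.82 to 16.5, so no library was a copy. The lowest pair, S. lycopersicum 1 and 3, shared block 2, and the highest, S. habrochaites 15 and 18, came from different blocks. Within block 1, S. lycopersicum 2 and 6 reached 8.27. On simulated tables the seedling comparison of S. pennellii with S. lycopersicum recovered 95% of 4-fold and 38% of 2-fold changes, and the factorial comparison over tissues 96% and 23%, with 0 false calls. Changes were put only into genes above a minimum of reads. The simulated spread was set in advance rather than taken from the data, and no run blocks were simulated. These figures therefore do not cover members with few reads, such as GA3ox1, or the real spread.

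All 10 genes are named, and, as the most alike gene, only those of the 2 members with the highest r. The genes, lists and tests were chosen with earlier results of these data known; the root-high set and the tests between experiments and between run blocks were chosen after the data were seen. Alternatives were a pseudocount of 0.1, no filter, median-ratio and quantile scaling, run blocks, each library left out, and voom on recovered reads, which was added in place of a planned count test because the unit is RPKM. None of the table's IDs matched the RefSeq table of assembly SLM_r2.1 (0 matched), so other pathway genes, tissue markers, coordinates and sequences were not used here.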

Additional observations from a re-analysis of the deposited data

Results flagged for a closer look

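Of 40 groups of 7 seedling libraries (10 genes in 4 species), 4 had a library far from the others. The rule flags about 1 in 20 groups of normally distributed values, which values of few reads from several run blocks need not follow. Whether 4 is more than chance gives was therefore not tested. CPS had 7.93 RPKM in S. pennellii library 26, the highest of its species by a wide gap. GA20ox3 had 2.45 RPKM in the same library, the highest of S. pennellii. GA3ox1 had 6.40 RPKM in S. pennellii library 27. GA20ox2 had 0.358 RPKM in S. lycopersicum library 7, which is 1 read where the other libraries of that species had 0. A lone value above 0 is always flagged by this rule.

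The species difference of GA3ox2 varied between the tissues of the factorial (limma F test, adjusted p = 0.0294), 1 of 10 genes where 8.46% of all genes passed. It was lost with a pseudocount of 0.1 (adjusted p = 0.112) and with voom on the recovered reads (adjusted p = 0.0716), and it depended on single libraries, as given above. In seedlings, the value of S. pennellii minus that of S. lycopersicum also changed between the factorial and the plates for 4 of 10 genes, where 9.38% of all genes were called. The log2 change was -2.04 for GA20ox2, -2.22 for GA3ox1, -2.51 for GID1b1 and -2.42 for GID1b2. For GA20ox2 it was -1.37 without the S. pennellii shade seedling and -1.23 without that of S. lycopersicum. In these seedling libraries the summed RPKM of the root-high genes was 168 to 253 (S. lycopersicum) and 592 to 1431 (S. pennellii) on plates. In the factorial it was 1829 to 2064 and 1124 to 1288. Its part in the changes between the experiments was not tested.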

How the results depend on the processing

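These single-gene counts cover only values called in the main fit, under settings where the gene was tested. Of 341 such values recomputed under another setting, 317 stayed called in the same direction, and 0 reversed. With 1 library left out, 1257 of 1348 stayed called. F tests have no direction and so could not reverse. Genes called only under another setting are not counted. An example is GID1b1 in S. habrochaites against S. pimpinellifolium with median-ratio scaling (log2 difference 1.08, limma adjusted p = 5.66e-04). The counts of called genes that moved by more than 1.5 times follow, with the share of all genes called under that setting in brackets. With a pseudocount of 0.1, the species difference was called for 1 gene in inflorescence (6.82%), 1 in leaf (9.36%) and 0 in meristem (4.64%). The F test of species by tissue had 0 (5.06%). Without the filter on low values, leaf had 1 (8.08%). With median-ratio scaling, the difference over tissues had 1 gene (10.4%), GA20ox2 in place of GA3ox2 and GID1b1, and that in meristem 2 (6.59%). With quantile normalization, S. pimpinellifolium against S. lycopersicum had 1 (4.91%) and S. pennellii against S. habrochaites 1 (18.9%). The difference over tissues had 1 (10.3%), again GA20ox2 in place of both. With voom on the recovered reads, the difference over tissues had 4 genes (17.7%, against 10.6% of all genes in the main fit). Factorial seedlings had 1 (10.2%), meristem 2 (8.18%, against 5.68% in the main fit) and the F test of species by tissue 0 (8.27%). Within run block 1, S. habrochaites against S. pimpinellifolium had 5 genes (10.2%) and S. pennellii against S. habrochaites 1 (18.6%). Within run block 2, S. pimpinellifolium against S. lycopersicum had 1 (4.3%) and S. pennellii against S. lycopersicum 3 (16.9%). The causes were not tested.

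With each library left out, the counts ran from 1 to 2 for S. pimpinellifolium against S. lycopersicum, 1 to 4 for the species difference over tissues, 0 to 2 in inflorescence, leaf, meristem and factorial seedlings, 0 to 3 in stem and 0 to 2 for the F test of species by tissue. The share of all genes called with a library left out is not given here, so these counts are no result about the members. A tissue left with a lone library of a species was assumed to vary like the others. Scaling moved the median of all genes by over 0.1 in the factorial in inflorescence (by 0.20 with median-ratio scaling and 0.24 with quantile normalization), in seedling (0.14 with both), over tissues (0.11) and in species by light (0.13; both with quantile normalization alone). It also did so in comparisons with S. habrochaites or S. pennellii seedlings, most in S. pennellii against S. habrochaites (median 0.25; shift -0.19 with median-ratio scaling and -0.30 with quantile normalization). Species could not be paired by replicate, because their seedling libraries carry different replicate numbers and the factorial has 1 library per combination. Shade and sun were paired within each tissue and species by the model itself.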
